A study of Mus musculus with 27 samples.

Results

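P3 cells, the Prx1-tdTomato cells without CD45 and with CD105, were compared between skeletal muscle and bone marrow. All 6 P3 libraries of these tissues were used, 3 from muscle and 3 from bone marrow, out of 27 libraries in the series, and every gene of the table entered the comparison. The study sorted 3 subpopulations from 3 tissues, in 3 replicates each, and asked how Prx1-lineage cells differ between tissue sites. The mice were Prx1-CreER/Ai14/Rag1 animals of both sexes, aged 8 to 12 weeks, and cells were taken from hindlimbs 3 days after tamoxifen. Every group, bone marrow included, therefore carried the Rag1 mutation, the Prx1-CreER driver and the Ai14 tdTomato reporter, and every group had been given tamoxifen. The reporter marks cells in which CreER, made under the Prx1 promoter, was active at the time of tamoxifen, together with their progeny. P3 was gated as CD105+ with CD200 variable, beside P1 (CD105-, CD200+) and P2 (CD105-, CD200-). Muscle was minced and digested with Collagenase P before the sort, whereas bone marrow was flushed out without digestion, so tissue and preparation cannot be told apart. Tissues and subpopulations were taken from shared animals, but it is not stated which animal gave which library, so p-values measure the spread between these libraries.

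CD105, the product of Eng, is a co-receptor that binds TGF-β and BMP ligands at the cell surface together with type I and type II receptors. It is found on mesenchymal stromal cells, on endothelial cells, and on erythroid progenitors of the marrow. Resident fibroblasts of muscle, among them fibro-adipogenic progenitors, make the loose matrix between fibres and can give rise to fat and bone. Marrow stromal cells that express Cxcl12 and Lepr form the niche that holds haematopoietic stem cells. Values are normalized counts of the deposited table. A differentially expressed gene (DEG) had an adjusted p below 0.05 together with a log2 fold change of more than 1.5 in either direction. All fold changes are muscle over bone marrow on the log2(normalized count + 1) scale, ± SE, from limma with n = 3 libraries a tissue.

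The libraries summed to 10547533 to 11495243 normalized counts in muscle and 8631881 to 10307689 in bone marrow, and listed 19938 to 20299 and 16801 to 17447 genes above 0. Across genes, muscle libraries correlated with each other at r = 0.968 to 0.973 on the log2 scale, and bone marrow libraries at 0.946 to 0.959. Bone marrow replicate 1 stood closest to muscle (r = 0.901 to 0.911, against 0.861 to 0.881 for the other bone marrow libraries). It held more stromal and fewer erythroid transcripts: the 16 marrow stromal niche genes made up 2.18%, 0.494% and 0.585% of the totals of bone marrow replicates 1, 2 and 3, and the erythroid genes 4.27%, 5.99% and 6.57%. Chosen after the values were seen, the neutrophil granule gene Mpo was listed at 6512, 16569 and 2.03 in the same order, so that replicate 3 stood apart for it. Counts without single libraries are therefore given for some lists, and list counts shown without such figures could change too.

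The genes of the sort were measured first. Eng (chr2:32646595-32682669, plus strand, GRCm38, GENCODE M21) was listed at 6067, 5621 and 4523 in the muscle libraries and 1739.5, 774 and 1072 in the bone marrow libraries. All muscle libraries lay above all bone marrow libraries, although both groups had been gated as CD105+. The log2 fold change was 2.25 ± 0.33 (SE), with an adjusted p of 0.0016, but the call was lost with all 27 libraries in the fit (adjusted p = 0.22). Cd200 (chr16:45382135-45409053, minus strand), whose product is an immunoglobulin-family membrane protein, read 8339.8, 6525 and 6947 in the muscle libraries and 905, 473 and 451 in the bone marrow libraries, a log2 fold change of 3.64 ± 0.31 (SE), adjusted p = 0.00019. Ptprc, which codes for CD45, was low throughout, at 26.1, 35.7 and 15.5 in muscle and 308, 66.5 and 321 in bone marrow. It was lower in muscle (-2.89 ± 0.71 (SE), adjusted p = 0.014), a call that ended with all 27 libraries (adjusted p = 0.077) and without muscle replicate 3 or bone marrow replicate 3 (adjusted p = 0.051 and 0.055). Prrx1, the gene whose promoter drove CreER, read 712, 934 and 808 in muscle and 725, 132 and 147 in bone marrow. Its groups overlapped through bone marrow replicate 1 and it did not pass the test (1.74 ± 0.62 (SE), adjusted p = 0.056), while without that library it did (2.53, adjusted p = 0.00056). The row named as transgenes was at 5387, 14708 and 15831 in muscle and 7779, 4005 and 4187 in bone marrow, with overlapping groups.

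P3 cells of the 2 tissues differed at a large share of the transcriptome. Of 14058 genes tested, 2709 were DEGs higher in muscle (19.3%) and 1754 were lower (12.5%), and these percentages are the background for every list below. The 6 libraries did not overlap between tissues for 4430 of the 4463 DEGs. With 3 libraries a tissue, the thresholds of a call make this likely, so it adds no support to the calls. The median log2 fold change over all genes tested was 0.25. Rescaling every library to the same total moved this median to 0.04 and the counts to 2252 higher and 2094 lower, and quantile normalization moved it to -0.04 with 2295 higher and 2184 lower, which left 51.8% and 51.2% of the DEGs higher in muscle in place of 60.7%. Differences exceeded 5 on the log2 scale for 454 DEGs higher in muscle and 249 lower. In bulk libraries, fewer cells of a type and less RNA per cell cannot be told apart.

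**Figure D1:**
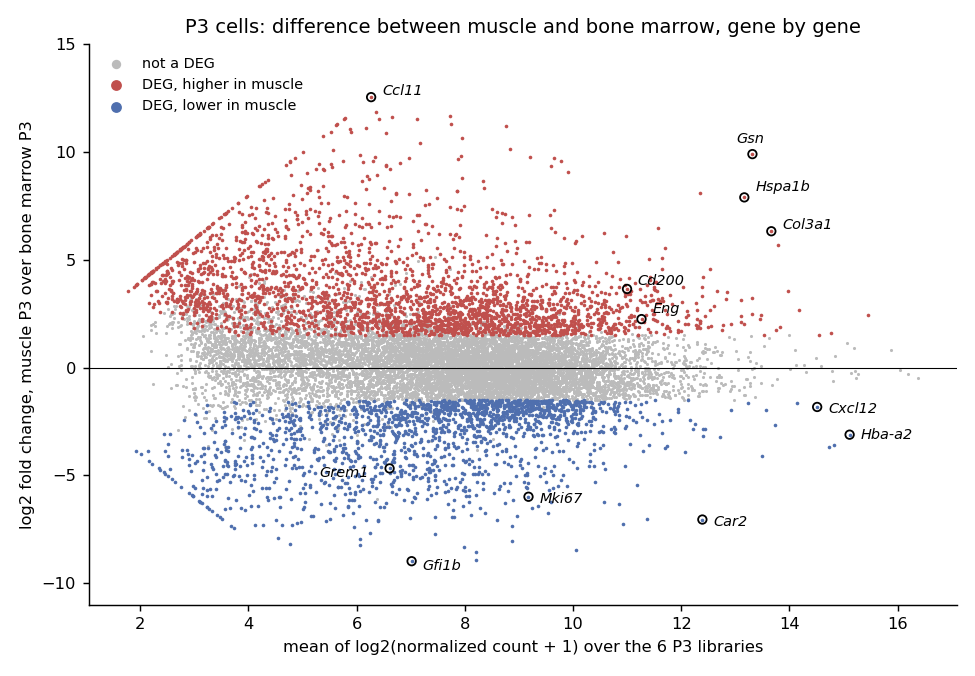
Each point is a gene, with its mean log2(normalized count + 1) over the 6 P3 libraries on the horizontal axis and its log2 fold change, muscle over bone marrow, on the vertical axis; 2709 DEGs higher in muscle are red and 1754 lower are blue. The straight edges at low levels are genes listed at or near 0 in one tissue, and labelled genes are circled.

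The 10 largest differences toward muscle were secreted or cell surface products. Ccl11 (chr11:82057823-82062955, plus strand), the eosinophil chemokine eotaxin, read 5384, 7681 and 5059 in muscle and was listed at 0 in every bone marrow library. Mfap4, a microfibril-associated glycoprotein, was at 2919, 3131 and 3044 in muscle. C7, a complement component, was at 3644, 3067 and 2378. Dpt, the matrix protein dermatopontin, was at 2542, 3101 and 1929. These 3 were likewise listed at 0 in all bone marrow libraries, and no fold is given for them. F3, which codes for tissue factor, was listed at 5227, 5626 and 4235 in muscle and 1.42, 0 and 0 in bone marrow (11.86 ± 0.49 (SE), adjusted p = 3.1e-05). The neutrophil chemokine Cxcl1 was at 10449, 27190.4 and 6323 in muscle and 25.9, 0 and 0.916 in bone marrow (11.67 ± 1.18 (SE), adjusted p = 0.00035). Has1, a hyaluronan synthase, Ccl21a, a lymphoid chemokine, Igfbp6, a binding protein for IGF2, and Cilp, a matrix protein of cartilage and tendon, differed by 11.64, 11.54, 11.54 and 11.27 (largest adjusted p = 0.00012). None of these 10 genes reached 30 in a bone marrow library. The 10 largest differences toward bone marrow follow. Gfi1b (chr2:28609450-28621982, minus strand), a repressor needed for red cell and platelet formation, read 13.9, 1.8 and 3.59 in muscle and 1395, 3987 and 4416 in bone marrow (-8.98 ± 0.73 (SE), adjusted p = 0.00016). Car1, the carbonic anhydrase of red cells, and Cldn13, a claudin of erythroid cells, differed by -8.44 and -8.05. The granule and calcium-binding proteins S100a8, S100a9, Ngp and Camp differed by -8.94, -8.55, -8.32 and -8.22, with S100a8 at 69.8, 0 and 32.3 in muscle and 9462, 9709 and 3029 in bone marrow. The histone genes Hist1h1b and Hist1h2ae differed by -8.19 and -7.95 and the protease gene Prss50 by -7.90, all with adjusted p of at most 0.0036.

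**Figure D2:**
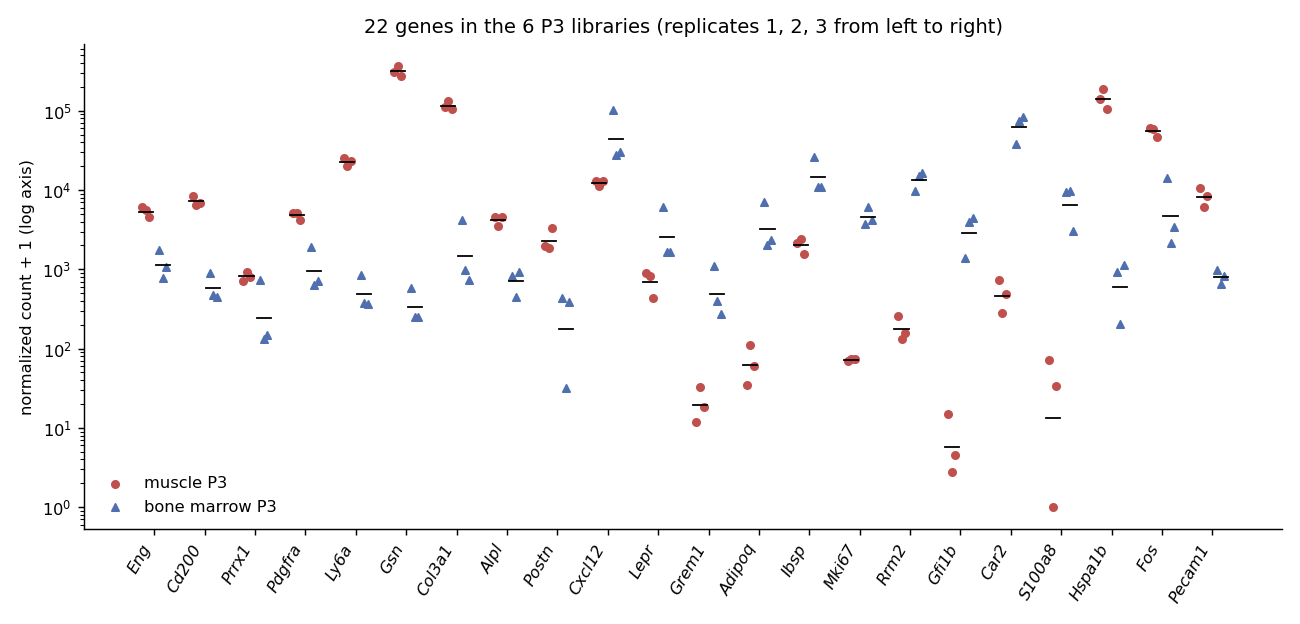
Normalized count + 1 of 22 genes (log axis) in the 3 muscle P3 libraries (red circles) and the 3 bone marrow P3 libraries (blue triangles), with lines at the mean of the log2 values. Prrx1 is the gene whose tissues overlap, bone marrow replicate 1 (left triangle) is the highest bone marrow library for Eng, Cd200, Cxcl12, Lepr and Grem1, and it is the lowest for Rrm2, Gfi1b and Car2.

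Fibroblast and matrix genes were higher in muscle. Of the 25 genes that mark fibro-adipogenic progenitors and adventitial fibroblasts, 20 were DEGs higher in muscle and 0 were lower, with a median log2 fold change of 6.10 beside 0.25 over all genes. Where a member is listed at 0 in one tissue, its part in a list median depends on the pseudocount of 1. Together these genes made up 5% to 5.82% of the muscle libraries and 0.0701% to 0.258% of the bone marrow libraries. Gsn (chr2:35256380-35307892, plus strand), which codes for the actin-severing protein gelsolin, was the most abundant entry of the list at 307543, 367169 and 276159 in the muscle libraries and 578, 249.5 and 249 in the bone marrow libraries (9.89 ± 0.37 (SE), adjusted p = 2.2e-05). The collagen-binding proteoglycan gene Dcn read 95005, 121711 and 90481 in muscle and 2564, 1218 and 2509.8 in bone marrow (5.67 ± 0.35 (SE), adjusted p = 8.3e-05), and the surface antigen genes Ly6a (Sca-1) and Ly6c1 differed by 5.55 ± 0.36 and 6.48 ± 0.43, with Ly6a at 25405, 20247 and 23387 in muscle and 854, 372 and 365 in bone marrow. Pdgfra, the receptor by which these progenitors are usually sorted, was at 5164, 5199 and 4213 in muscle and 1927, 626 and 719 in bone marrow (2.34 ± 0.42 (SE), adjusted p = 0.0042), so the transcript was present in every bone marrow library but lower there. Of 32 fibrous matrix genes 23 were higher in muscle and 0 were lower (median 2.94). Col3a1 (chr1:45311538-45349706, plus strand), the collagen of loose connective tissue, read 112587, 132716 and 104769 in muscle and 4234, 979.7 and 741 in bone marrow (6.32 ± 0.61 (SE), adjusted p = 0.00029). The type I collagen chains did not pass the test: Col1a1 was at 53399, 59693 and 41318 in muscle and 9217, 29141 and 77698 in bone marrow (0.89 ± 0.70 (SE), adjusted p = 0.33) and Col1a2 differed by 0.82 ± 0.49 (SE), adjusted p = 0.2. Bone marrow replicate 3 was above every muscle library for Col1a1, whereas replicate 1 was the lowest of all 6. Among 11 tendon genes tested, 10 were higher in muscle, with Fmod, a collagen-organizing proteoglycan, at 29637, 20332 and 23697 in muscle and 98.2, 20.8 and 13.5 in bone marrow (9.59 ± 0.65 (SE), adjusted p = 0.0001) and Thbs4, a thrombospondin of tendon and muscle, differing by 10.14 ± 0.69 (SE), adjusted p = 0.0001. Egr1, which also stands on the immediate early list below, was among the tendon genes higher in muscle. Some other genes, such as Dcn, are likewise shared between lists. Tnmd and Kera, a tenomodulin and a keratocan gene chosen after their values were seen, were also tested. Tnmd was at 2085, 1606 and 1815 in muscle and 6.38, 2.84 and 0.93 in bone marrow. Kera was at 1260.5, 879 and 979 in muscle and listed at 0 in all bone marrow libraries. Tnc, which codes for the matrix protein tenascin C, was the member lower in muscle, at 2849, 2727 and 2359 in muscle and 15206, 4767 and 5948 in bone marrow (-1.52 ± 0.42 (SE), adjusted p = 0.024), a call lost when any single muscle library or bone marrow replicate 1 was left out (-1.01 without it).

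Markers of vessel wall cells were also higher in muscle. Of 22 endothelial genes 17 were higher, and the list summed to 0.61% to 0.934% of muscle and 0.0768% to 0.365% of bone marrow libraries (median 2.88). Pecam1, an adhesion molecule of endothelial junctions, read 10537, 6067 and 8460 in muscle and 985, 655 and 815 in bone marrow (3.33 ± 0.28 (SE), adjusted p = 0.00019). The von Willebrand factor gene Vwf, the junction gene Esam and the VEGF receptor gene Kdr differed by 3.83 ± 0.30, 3.12 ± 0.45 and 2.98 ± 0.74, of which Kdr lost its call with all 27 libraries and without muscle replicate 1 (adjusted p = 0.057). Stab2, a scavenger receptor of sinusoidal endothelium chosen after its values were seen, went the other way, at 26.8, 113 and 76.1 in muscle and 3408, 600.4 and 2632 in bone marrow (-4.81 ± 0.76 (SE), adjusted p = 0.0023). Endothelial transcripts were present in both tissues. With all 27 libraries in the fit, 5 endothelial genes were higher in muscle. Of 16 mural and smooth muscle genes 13 were higher in muscle and 0 were lower (median 5.16). The contractile gene Acta2 read 10888, 8305 and 10936 in muscle and 19.9, 4.77 and 0.937 in bone marrow (10.66 ± 0.77 (SE), adjusted p = 0.00012). Tagln, an actin-binding protein gene, read 5274, 4894 and 5887 in muscle and 58.9, 0 and 0 in bone marrow (10.41 ± 1.46 (SE), adjusted p = 0.0014). The pericyte gene Rgs5 read 8046, 5426 and 6941 in muscle and 12.7, 6.29 and 4.41 in bone marrow (9.69 ± 0.42 (SE), adjusted p = 3.2e-05). All 3 were close to 0 in bone marrow replicates 2 and 3. Pdgfrb, a receptor shared by mural and stromal cells, differed less (1.80 ± 0.60 (SE), adjusted p = 0.045) and lost its call when any 1 library other than bone marrow replicate 1 was left out.

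Transcripts of muscle fibres took a small share of muscle P3. The 28 myofibril genes summed to 0.038% to 0.0598% of a muscle library and 0.00206% to 0.00468% of a bone marrow library, and of 22 tested 16 were higher in muscle. A gene could enter the test through the 3 muscle libraries alone, so this share is partly set by the filter. Without the filter, 19 of 28 were higher. Acta1, the skeletal actin gene, read 889, 1730.3 and 757 in muscle and 5.67, 12.3 and 2.79 in bone marrow (7.24 ± 0.59 (SE), adjusted p = 0.00016), and Myl1, a light chain of fast fibres, 241, 346 and 201 in muscle and 2.94, 0.927 and 0 in bone marrow. The defining factors of satellite cells, chosen after their values were seen, lay at or near the minimum value of 10. Pax7 was at 3.28, 0.818 and 11.5 in muscle, Myf5 at 9.29, 5.73 and 14.7 and Myod1 at 11.5, 13.9 and 8.31, and all 3 were listed at 0 in every bone marrow library. Chodl, a lectin gene of satellite cells, was at 644, 469 and 825 in muscle and 3.4, 6.16 and 0 in bone marrow (7.64 ± 0.77 (SE), adjusted p = 0.00034), and 3 of 6 satellite genes tested were higher in muscle. The filter bears on this share too, and without it 5 of 10 satellite genes were higher. The 14 Schwann cell genes gave 3 higher of 9 tested (1 with all 27 libraries), with Mbp, the myelin basic protein gene, at 239.6, 246 and 320.3 in muscle and 219, 617 and 630.5 in bone marrow (-0.72 ± 0.45 (SE), adjusted p = 0.23). The list took at most 0.012% of a library. The Mbp groups overlapped. The part of vessel wall, muscle fibre and nerve transcripts in the differences of other genes was not tested.

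**Figure D3:**
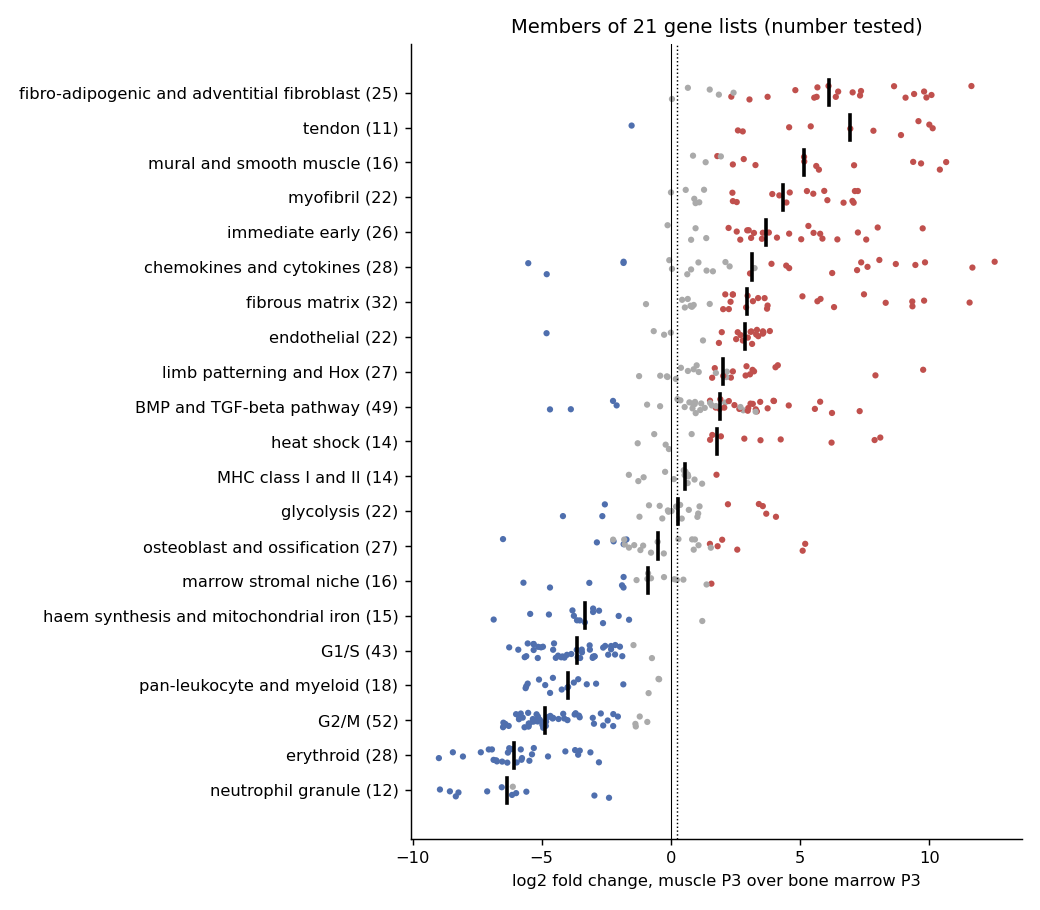
Log2 fold change, muscle over bone marrow, of every tested member of 21 gene lists (number tested in brackets); red points are DEGs higher in muscle, blue points lower, grey points no DEG, the bars are list medians and the dotted line is the median of all genes. Fibroblast, tendon and mural lists lie to the right, and erythroid, neutrophil granule, G1/S and G2/M lists lie to the left.

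Genes of the marrow niche were divided. Cxcl12 (chr6:117168535-117181367, plus strand), the chemokine that retains haematopoietic stem cells, was listed at 13143, 11158 and 13038 in the muscle libraries and 101059.7, 27731 and 30573 in the bone marrow libraries. Bone marrow replicate 1 held over 3 times the value of the other bone marrow libraries, and all 3 bone marrow libraries lay above muscle. The log2 fold change was -1.83 ± 0.50 (SE), adjusted p = 0.022, and without bone marrow replicate 1 it was -1.23 (adjusted p = 0.00078), under the fold threshold. Without a muscle library, the adjusted p was 0.065 to 0.085. Lepr, the leptin receptor of marrow stroma, followed a like order at 894, 826 and 438 in muscle and 6112, 1651 and 1634 in bone marrow (-1.89 ± 0.55 (SE), adjusted p = 0.028, and -1.26 without bone marrow replicate 1). The Lepr call was also lost when any single muscle library was left out. Grem1 and Adipoq differed by more and kept their calls without any 1 library. Grem1 (chr2:113746164-113758646, minus strand), a secreted BMP antagonist, read 10.9, 32 and 17.3 in muscle and 1101, 403 and 269.8 in bone marrow (-4.68 ± 0.64 (SE), adjusted p = 0.0013). Adipoq, which codes for adiponectin, was at 33.6, 111 and 60 in muscle and 7044, 2015 and 2368 in bone marrow (-5.71 ± 0.59 (SE), adjusted p = 0.00038). Igfbp5, an IGF-binding protein, Spp1, which codes for osteopontin, and Lpl, a lipoprotein lipase, did not pass the test, with differences of -1.33 ± 0.52, -0.77 ± 0.91 and 0.23 ± 0.54. In all, 6 of 16 niche genes were lower in muscle and 1 was higher (median -0.89). Without muscle replicate 1 or 3, or bone marrow replicate 1, 3 were lower, as with all 27 libraries. Members named after their values were seen were Kitl, the stem cell factor gene (1.57 ± 0.53 (SE), adjusted p = 0.048), which was higher in muscle and lost its call when any library other than bone marrow replicate 1 was left out, and Esm1, a proteoglycan gene of endothelial cells (-3.16 ± 0.42 (SE), adjusted p = 0.0011). The Kitl call was also lost under each rescaling, with median centring, without the filter, without the eBayes trend, at a pseudocount of 0.1 and with all 27 libraries.

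Of 27 ossification genes tested, 6 were higher and 5 lower in muscle (median -0.51), shares near those over all genes (19.3% and 12.5%). With all 27 libraries in the fit 2 were higher and 2 lower, and leaving out muscle replicate 1 left 3 and 1. Without muscle replicate 2 or bone marrow replicate 3, 3 were lower in each case. Alpl, the alkaline phosphatase of osteoblasts and their precursors, read 4531, 3550 and 4537 in muscle and 828, 447 and 934 in bone marrow (2.57 ± 0.32 (SE), adjusted p = 0.00084). Ibsp, a mineral-binding sialoprotein, was higher in bone marrow, at 2138, 2433 and 1539 in muscle and 25776, 10926 and 10949 in bone marrow (-2.86 ± 0.39 (SE), adjusted p = 0.0012). Sp7, which codes for the transcription factor osterix, was at 30.6, 59 and 58.9 in muscle and 215, 127 and 146 in bone marrow (-1.72 ± 0.46 (SE), adjusted p = 0.021), a call lost without muscle replicate 1 or bone marrow replicate 1. The transcription factor gene Runx2 read 30.8, 327 and 53.1 in muscle and 1636, 205 and 174 in bone marrow. Its groups overlapped, and it did not pass the test (-2.23 ± 1.09 (SE), adjusted p = 0.14). Bglap, the osteocalcin gene of mature osteoblasts, ranged widely within bone marrow, at 921, 777 and 452 in muscle and 365, 3256 and 11632 in bone marrow, where bone marrow replicate 1 was the lowest of all 6 libraries and replicate 3 the highest (-1.81 ± 1.10 (SE), adjusted p = 0.22). Without bone marrow replicate 1 the difference was -3.16 with an adjusted p of 0.0059. Sparc, a matrix protein that binds collagen, was at the edge of the call (1.51 ± 0.28 (SE), adjusted p = 0.0046). It fell below the fold threshold without muscle replicate 1, without muscle replicate 2, without bone marrow replicate 2, and under each rescaling. Pth1r, the receptor for parathyroid hormone chosen after its values were seen, was listed at 0, 0 and 133 in muscle and 973, 344 and 291 in bone marrow, with muscle replicate 3 alone above 0 in muscle (-6.50 ± 1.80 (SE), adjusted p = 0.023). Its call was lost when any library other than muscle replicate 3 was left out, with an adjusted p from 0.055 to 0.082 in these fits. The periosteal progenitor genes Ctsk, which codes for cathepsin K, and Postn, which codes for periostin, were higher in muscle. Ctsk was at 2165, 3427 and 2808 in muscle and 919, 271 and 323 in bone marrow (2.67 ± 0.47 (SE), adjusted p = 0.0036). Postn was at 1991, 1849 and 3287 in muscle and 439.7, 30.9 and 384 in bone marrow (3.71 ± 0.94 (SE), adjusted p = 0.016) and lost its call without muscle replicate 3 (adjusted p = 0.054). Of 18 cartilage genes 7 were higher and 1 lower. Col2a1, the main collagen of cartilage, was at 2458, 1899 and 214 in muscle and 775, 403 and 7865 in bone marrow and did not pass (-0.43 ± 1.26 (SE), adjusted p = 0.8), whereas the matrix gene Chad read 3629.9, 2074 and 2906 in muscle and 121, 0.952 and 15.9 in bone marrow (7.46 ± 1.29 (SE), adjusted p = 0.0035). Cytl1, a secreted protein of chondrocytes, was at 2530.1, 2210.4 and 2585 in muscle and was listed at 0 in bone marrow. Sox6, a chondrocyte and erythroid transcription factor chosen after its values were seen, was at 4.8, 0 and 0 in muscle and 206, 97.1 and 170.1 in bone marrow (-6.40 ± 0.81 (SE), adjusted p = 0.0009). Fabp4, a fatty acid carrier of fat cells and capillaries, was at 30979.7, 17339 and 28609 in muscle and 5078, 702 and 2827 in bone marrow (3.52 ± 0.67 (SE), adjusted p = 0.0052), and of 8 adipocyte genes 2 were higher and 1, Adipoq, was lower. Without muscle replicate 2 or 3, or bone marrow replicate 2 or 3, or with all 27 libraries, 1 was higher.

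Erythroid transcripts were higher in bone marrow P3 without exception among the members tested. All 28 tested of 29 erythroid genes were lower in muscle, with a median log2 fold change of -6.06, and they made up 0.404%, 0.261% and 0.248% of muscle replicates 1, 2 and 3 and 4.27%, 5.99% and 6.57% of the bone marrow replicates. Klf1 and Gata1, the master transcription factors of the lineage, and Epor, the erythropoietin receptor gene, were chosen after their values were seen. Klf1 was at 65.6, 22.2 and 30.2 in muscle and 3065, 7831 and 8827 in bone marrow. Gata1 was at 42.5, 27.4 and 26.2 in muscle and 2022, 4290.3 and 4644 in bone marrow. Epor was at 44.3, 18.1 and 45 in muscle and 1256, 2456 and 3147 in bone marrow. All 3 were lower in muscle by more than 5 on the log2 scale (-7.36, -6.73 and -5.97), and each was above 0 in every muscle library. The globin genes Hba-a2, Hba-a1, Hbb-bs and Hbb-bt differed less, by -3.11 ± 0.35, -3.71 ± 0.34, -3.59 ± 0.34 and -4.08 ± 0.35. Hba-a2 (chr11:32296489-32297298, plus strand) read 16375, 11075 and 9651 in muscle and 74932, 114014 and 132677 in bone marrow, and reads of the near-identical globin copies could not be assigned with certainty to one of them. Car2, a carbonic anhydrase, was at 743, 282 and 484 in muscle and 38109, 74569 and 83028 in bone marrow (-7.05 ± 0.44 (SE), adjusted p = 8.3e-05), and the aspartic protease gene Ctse differed by -7.25 ± 0.46 (SE), adjusted p = 8.4e-05. Of 15 genes of haem synthesis and mitochondrial iron 14 were lower in muscle (median -3.33). Alad, an enzyme of haem synthesis, and the transporter genes Tmem14c and Abcb10 differed by -4.72, -3.63 and -3.75, with Alad at 388, 233 and 303 in muscle and 4971, 9028 and 11263 in bone marrow. Gpx1, a glutathione peroxidase abundant in red cells and liver, differed by -2.65 ± 0.30. The actin genes went in opposite directions, with Actb at -1.64 and Actg1 at 2.69. Leaving out any 1 library left 28 of 28 erythroid genes lower in muscle in the smallest case.

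Promoters of erythroid genes were read from RefSeq (GRCm38.p6), 250 bases before to 50 after the gene start, because the list moved as a whole. Of the 29 erythroid genes, 20 had a promoter in the table. The letters AGATAA, to which GATA factors bind, were present on either strand in 9 of 20 genes with a promoter (45%), beside 12.7% of all 27025 genes, and CCACACCC, a KLF1-type element, in 1 of 20 genes with a promoter (5%), beside 4.09% of all. Hbb-bs was the entry of highest level among those holding a motif. It held both, in capitals below, at chr7:103827879-103828178, minus strand, with AGATAA starting 210 and CCACACCC 93 bases before the gene start. A match is a description and says nothing of binding in these cells.
Hbb-bs promoter: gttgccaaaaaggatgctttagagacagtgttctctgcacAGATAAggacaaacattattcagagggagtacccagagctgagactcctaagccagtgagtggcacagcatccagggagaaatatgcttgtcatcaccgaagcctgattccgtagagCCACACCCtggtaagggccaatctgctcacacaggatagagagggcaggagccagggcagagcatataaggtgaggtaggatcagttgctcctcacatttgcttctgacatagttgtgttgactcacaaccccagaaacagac

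Leukocyte transcripts were also higher in bone marrow although the cells had been sorted without CD45. Of 12 neutrophil granule genes tested 11 were lower in muscle (median -6.35). These genes could enter the test through the 3 bone marrow libraries alone, so this share is partly set by the filter. Without the filter, 13 of 16 were lower. The list of 16 summed to 0.509%, 0.641% and 0.12% of bone marrow replicates 1, 2 and 3 and to at most 0.0047% of a muscle library. Mpo, the myeloperoxidase gene of early granulocytes, did not pass the test (-6.12 ± 2.89 (SE), adjusted p = 0.12), with bone marrow replicate 3 at the level of muscle. Of 18 general leukocyte and myeloid genes 15 were lower in muscle. With all 27 libraries in the fit, 7 neutrophil granule genes and 9 leukocyte and myeloid genes were lower. Lyz2, a lysozyme gene, read 199, 111 and 199.9 in muscle and 5234, 4454 and 2552 in bone marrow (-4.56 ± 0.37 (SE), adjusted p = 0.00016), and Rac2 and Coro1a, which act on the leukocyte cytoskeleton, differed by -5.54 and -4.00. Of 11 B cell genes 3 could be tested, and 1 was lower in muscle and 0 were higher. None was called with all 27 libraries, or without muscle replicate 1 or 2 or bone marrow replicate 3. Among the 4 members of highest level, the early B cell genes Igll1 and Vpreb1 were seen in 2 of the bone marrow libraries. Igll1 and Vpreb1 code for parts of the surrogate light chain. Igll1 was at 0, 0 and 1.28 in muscle and 0, 349 and 323 in bone marrow. Vpreb1 was at 3.28, 2.48 and 7.03 in muscle and 0, 287 and 229 in bone marrow. Both reached 10 in too few libraries for the test. These genes are made before the step that needs Rag1. The platelet factor gene Pf4 was at 422, 9.82 and 19.2 in muscle and 217, 3349 and 715 in bone marrow, so that muscle replicate 1 lay within the bone marrow range (-4.16 ± 1.47 (SE), adjusted p = 0.055). Without that library the adjusted p was 0.011. Of 10 megakaryocyte genes tested 6 were lower in muscle, and 2 without muscle replicate 2 or 3 or bone marrow replicate 2 or 3 (3 with all 27 libraries). The part of these blood cell transcripts in the differences of other genes was not tested.

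**Figure D4:**
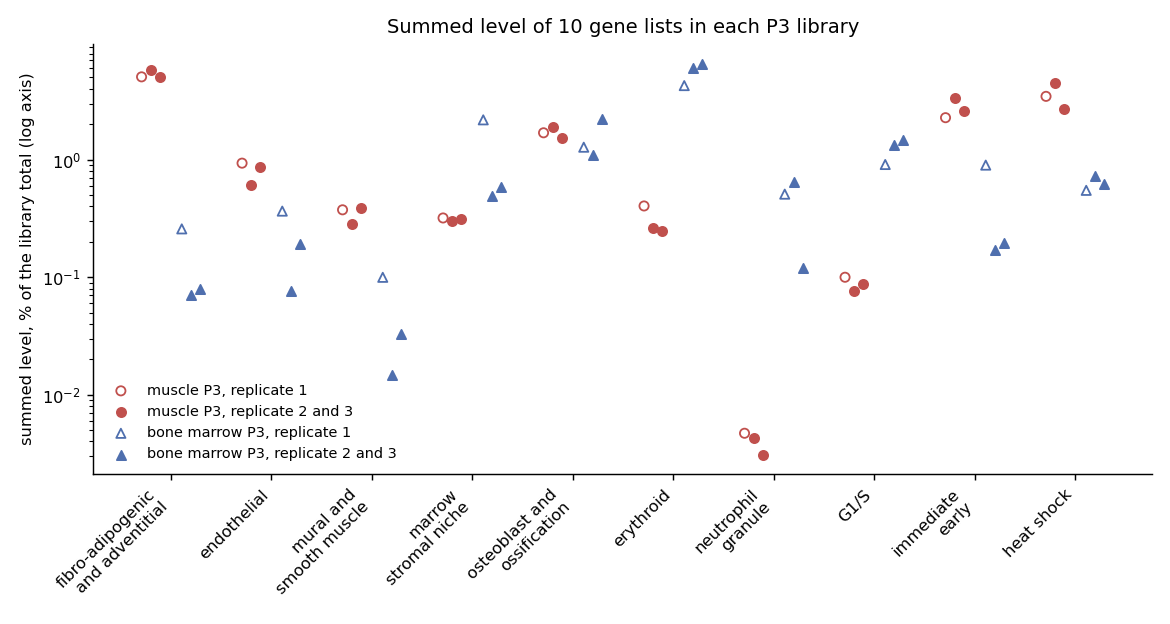
Summed normalized counts of 10 gene lists as a percentage of each P3 library's total (log axis), with muscle as red circles and bone marrow as blue triangles, open for replicate 1. Bone marrow replicate 1 is the highest bone marrow library for fibroblast, endothelial, mural, niche and immediate early genes and the lowest for erythroid and G1/S genes, and the tissues overlap for the osteoblast list alone.

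Cell cycle genes formed a block that was lower in muscle. Of 43 genes of G1 and S phase 41 were DEGs lower in muscle and 0 were higher (median -3.64), and of 52 genes of G2 and mitosis 48 were lower and 0 higher (median -4.89). Mki67 (chr7:135689784-135716361, minus strand), the Ki67 antigen gene of cycling cells, was at 68.3, 73.7 and 72.9 in the muscle libraries and 3781, 6132 and 4241 in the bone marrow libraries (-5.99 ± 0.27 (SE), adjusted p = 4.1e-05). Rrm2 and Rrm1 code for the subunits of ribonucleotide reductase. Rrm2 read 261, 131 and 155 in muscle and 9725, 15069.6 and 16381 in bone marrow (-6.26 ± 0.34 (SE), adjusted p = 5.8e-05). Rrm1 read 892, 695 and 759 in muscle and 6226, 10754 and 12670 in bone marrow (-3.60 ± 0.31 (SE), adjusted p = 0.00018). The replicative helicase genes Mcm2 and Mcm6 differed by -5.31 ± 0.33 and -3.85 ± 0.32. Every muscle library lay below every bone marrow library for all of these genes. Among mitotic genes, Birc5, which codes for survivin, was at 131, 99.9 and 149.8 in muscle and 3803, 6564 and 7247 in bone marrow (-5.48 ± 0.32 (SE), adjusted p = 7.5e-05), and Hmgb2, Tubb4b and Lbr, a chromatin protein, a tubulin and a lamin receptor, differed by -4.56 ± 0.34, -2.62 ± 0.31 and -2.05 ± 0.33. The replication-dependent histone gene Hist1h2ap was at 245, 180 and 275 in muscle and 19007, 37347 and 39593 in bone marrow (-7.04 ± 0.34 (SE), adjusted p = 4.5e-05), and its reads may be shared with near-identical histone copies. Erythroid and G1/S levels were ordered alike among the bone marrow libraries, both lowest in replicate 1 (0.909%, 1.34% and 1.46% for G1/S). G2/M levels were also lowest in replicate 1 but highest in replicate 2 (1.01%, 1.44% and 1.41%). The part of erythroid cells in the cell cycle difference was not tested. Without bone marrow replicate 1, 42 and 49 genes were lower in muscle. Leaving out bone marrow replicate 2 or 3 gave 39 and 48 in each case. With all 27 libraries in the fit, these counts were 28 and 41. Regulators that hold or release the G1 brake were split, with 5 of 14 higher and 4 lower. Ccnd3, the D-type cyclin of blood cells, was at 2038, 1929 and 2202 in muscle and 10353, 14594 and 22179 in bone marrow (-2.86 ± 0.31 (SE), adjusted p = 0.00045), while Ccnd2 was at 2573, 2393 and 2138 in muscle and 544, 587 and 429 in bone marrow (2.19 ± 0.23 (SE), adjusted p = 0.00043). Cdkn1a, which codes for the inhibitor p21, was higher in muscle (2.39 ± 0.58 (SE), adjusted p = 0.014), a call lost without muscle replicate 2 or bone marrow replicate 3. The higher count of this list fell to 1 without one or the other of them, to 2 without bone marrow replicate 2 and to 3 without muscle replicate 1 or 3. With all 27 libraries 2 were higher and 2 lower. Gas6, a growth arrest-specific ligand, did not pass (0.57 ± 0.92 (SE), adjusted p = 0.63).

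Promoter letters were counted for the genes of both phases. TTTCCCGC and TTTGGCGC, bound by E2F factors, were present on either strand in 5 and 5 of 31 genes with a promoter (16.1% each, beside 1.24% and 0.585% of all) for the G1/S list, and in 1 and 1 of 46 for G2/M genes. TTTGAA, the core of the cell cycle homology region, was present in 33 of 46 genes with a promoter (71.7%), beside 20.2% of all, for G2/M genes, and in 6 of 31 for G1/S genes. CCAAT, bound by NF-Y, was in 71% of G1/S and 76.1% of G2/M genes with a promoter, beside 41.1% of all. The members of highest level that held a motif were Rrm2 (chr12:24708004-24708303, plus strand) and Tubb4b (chr2:25224653-25224952, minus strand), shown for the contrast of 1 CCAAT in Rrm2 with the several CCAAT and the TTTGAA of Tubb4b, in capitals. The promoter of Rrm2 held neither E2F sequence in this window.
Rrm2 promoter: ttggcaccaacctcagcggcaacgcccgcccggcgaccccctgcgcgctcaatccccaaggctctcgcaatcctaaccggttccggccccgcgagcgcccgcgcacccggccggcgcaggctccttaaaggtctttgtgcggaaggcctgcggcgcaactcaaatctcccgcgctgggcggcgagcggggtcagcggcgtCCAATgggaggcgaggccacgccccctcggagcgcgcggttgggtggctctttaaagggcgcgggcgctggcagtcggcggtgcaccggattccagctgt
Tubb4b promoter: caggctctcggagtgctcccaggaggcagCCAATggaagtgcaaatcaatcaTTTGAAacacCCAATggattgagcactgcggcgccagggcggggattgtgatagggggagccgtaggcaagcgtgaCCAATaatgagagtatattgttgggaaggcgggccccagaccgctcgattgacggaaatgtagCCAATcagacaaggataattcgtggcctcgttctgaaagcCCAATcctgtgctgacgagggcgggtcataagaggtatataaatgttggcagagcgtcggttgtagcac

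Immediate early genes, which are switched on within minutes of a stimulus, and heat shock genes were higher in muscle. Of 26 immediate early genes 22 were higher and 0 were lower (median 3.68), and 18 were higher without muscle replicate 2 or bone marrow replicate 3. The list took 2.28%, 3.36% and 2.59% of muscle replicates 1, 2 and 3 and 0.898%, 0.169% and 0.194% of the bone marrow replicates. Fos, a subunit of the AP-1 factor, was at 60489, 59222 and 46800 in muscle and 14128, 2132 and 3383 in bone marrow (3.56 ± 0.64 (SE), adjusted p = 0.0041), and Cyr61, a matricellular protein, differed by 3.22 ± 0.68 (SE), adjusted p = 0.0078. Egr1, a zinc finger transcription factor that also acts in tendon, read 8647, 64181 and 43794 in muscle and 5254, 594 and 567 in bone marrow (4.58 ± 1.02 (SE), adjusted p = 0.0098). Muscle replicate 1 was low for Egr1, and Jun, at 10510, 40610.5 and 33848 in muscle and 14480.1, 2819 and 3387 in bone marrow, overlapped between tissues through this library and bone marrow replicate 1 (2.24 ± 0.73 (SE), adjusted p = 0.042). The call on Jun was lost when replicate 2 or 3 of either tissue was left out, and with rescaled totals or quantile normalization. Dusp1, a phosphatase that ends MAP kinase signals and was chosen after its values were seen, was at 468, 21631 and 24333 in muscle and 8107, 2232 and 1861 in bone marrow and did not pass (0.96 ± 1.45 (SE), adjusted p = 0.62), whereas without muscle replicate 1 it did (2.83, adjusted p = 0.021). Among heat shock genes 9 of 14 were higher and 0 lower (median 1.77), and 7 were higher without muscle replicate 2. The inducible Hsp70 gene Hspa1b read 142490.4, 190233 and 104612 in muscle and 919, 202 and 1140 in bone marrow (7.89 ± 0.63 (SE), adjusted p = 0.00016). Hspa1a read 91517, 113782 and 61268 in muscle and 403, 174 and 429 in bone marrow (8.11 ± 0.41 (SE), adjusted p = 5.2e-05), and reads of this near-identical pair may be shared. The constitutive chaperone gene Hspa8 differed by 1.61 ± 0.34 (SE), adjusted p = 0.008, falling below the fold threshold without muscle replicate 2, without bone marrow replicate 1, and under each rescaling. Hsp90ab1 was at 27007, 25571 and 18569.8 in muscle and 10059, 16133 and 14774 in bone marrow and did not pass (0.81 ± 0.30 (SE), adjusted p = 0.062). Hspb1, a small heat shock protein gene chosen after its values were seen, was at 3718, 28989.9 and 21401 in muscle and 497, 92.8 and 118 in bone marrow (6.22 ± 0.88 (SE), adjusted p = 0.0015). Muscle replicate 1 was the lowest muscle library for Egr1, Jun, Dusp1 and Hspb1. Muscle had been digested and bone marrow had not, and the part of that step in these values cannot be told apart from the tissue. Of 21 immediate early genes with a RefSeq promoter, 3 held TGACGTCA, the cAMP response element (14.3%, beside 2.03% of all). Btg2, an anti-proliferative gene of highest level among these, was at 25533, 24466 and 16734 in muscle and 1961, 1460 and 2389 in bone marrow (3.53 ± 0.29 (SE), adjusted p = 0.00016), and its promoter (chr1:134079106-134079405, minus strand) is shown with the element in capitals.
Btg2 promoter: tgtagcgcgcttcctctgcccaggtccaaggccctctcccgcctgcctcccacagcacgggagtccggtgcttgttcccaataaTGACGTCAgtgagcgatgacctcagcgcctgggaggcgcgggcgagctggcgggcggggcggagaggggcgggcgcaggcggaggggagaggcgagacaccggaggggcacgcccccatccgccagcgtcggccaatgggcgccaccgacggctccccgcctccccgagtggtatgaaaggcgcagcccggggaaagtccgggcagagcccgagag

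Chemokines and cytokines were higher in muscle for 14 of 28 tested and lower for 4 (median 3.15). Ccl2, which draws monocytes, was at 2199.6, 8439 and 1412 in muscle and 44.4, 3.85 and 25.4 in bone marrow (7.37 ± 0.94 (SE), adjusted p = 0.00094), and Il6, chosen after its values were seen, was at 1671, 4236 and 1165 in muscle and 2.8, 0 and 1.83 in bone marrow (9.84 ± 0.70 (SE), adjusted p = 0.00011). For Cxcl1, Ccl2 and Il6, muscle replicate 2 was the highest muscle library. Tnfsf11, which codes for RANKL, the signal for osteoclast formation, was the member with the largest difference toward bone marrow, at 1.64, 43.5 and 2.57 in muscle and 1117, 257 and 139 in bone marrow (-5.52 ± 1.21 (SE), adjusted p = 0.0092), and was chosen after its values were seen. The count lower in muscle was 2 without bone marrow replicate 1, without muscle replicate 1 or 3, or with all 27 libraries. Of 19 complement genes 11 were higher, among them C3, the central component, at 11844, 10587 and 10178 in muscle and 604, 379.6 and 81.1 in bone marrow (5.35 ± 0.66 (SE), adjusted p = 0.00083), and Clu, the inhibitor clusterin (2.01 ± 0.33 (SE), adjusted p = 0.0027). This count ranged from 6 to 13 when 1 library was left out, and Serping1, the C1 inhibitor gene (1.86 ± 0.48 (SE), adjusted p = 0.019), kept its call among these fits without bone marrow replicate 1 alone. Under quantile normalization 7 complement genes were higher and 2 lower, and with all 27 libraries 6 and 0. Genes of antigen presentation mostly did not pass the test. Of 14 MHC genes 1 was higher in muscle and 0 were lower, and none of the class I genes described here passed. H2-D1 was at 36198, 32443 and 37839 in muscle and 37429.9, 17816 and 21951 in bone marrow (0.53 ± 0.34 (SE), adjusted p = 0.23). B2m, the light chain of class I molecules, was at 19314, 16968 and 19618 in muscle and 21924, 15679 and 14652 in bone marrow (0.12 ± 0.27 (SE), adjusted p = 0.74). The groups overlapped for both.

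Genes of the pathway in which CD105 acts, with Eng itself on the list, were more often higher in muscle than lower. Of 49 BMP and TGF-β pathway genes 24 were higher and 4 lower (median 1.89), beside 19.3% and 12.5% of all genes. Without bone marrow replicate 1, 35 were higher, and without muscle replicate 2 or 3 or bone marrow replicate 3, 2 were lower. With all 27 libraries 12 were higher and 2 lower. Among ligands, Gdf10, also called BMP3b, was at 2301, 3869 and 3209.8 in muscle and 40.2, 8.66 and 17 in bone marrow (7.31 ± 0.54 (SE), adjusted p = 0.00012), whereas Tgfb1 was higher in bone marrow, at 12.2, 41.3 and 34.4 in muscle and 310, 491 and 403 in bone marrow (-3.87 ± 0.54 (SE), adjusted p = 0.0013). Both were chosen after their values were seen. Acvrl1, the type I receptor that pairs with CD105 in endothelium and also chosen afterwards, was at 2416, 1514 and 2471 in muscle and 320.1, 22.5 and 296 in bone marrow (3.99 ± 0.94 (SE), adjusted p = 0.012). Of the secreted regulators, Ltbp4, which stores latent TGF-β in the matrix, was at 4099, 8069.6 and 14239 in muscle and 209.6, 148 and 89.6 in bone marrow (5.78 ± 0.50 (SE), adjusted p = 0.00019). Fstl1, a follistatin-like protein, was higher in muscle (2.07 ± 0.63 (SE), adjusted p = 0.032) but lost this call when any 1 library other than bone marrow replicate 1 was left out. Id genes are targets of BMP signals. Id3, an inhibitor of helix-loop-helix factors, was at 18862, 25098 and 15712 in muscle and 2717, 886 and 1272 in bone marrow (3.75 ± 0.42 (SE), adjusted p = 0.00056), and Id1, chosen after its values were seen, was at 3170.4, 3349 and 3016 in muscle and 134, 75.3 and 234 in bone marrow (4.56 ± 0.40 (SE), adjusted p = 0.00021). Grem1, given above, was the pathway member with the largest difference toward bone marrow.

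Limb and position genes were higher in muscle for 14 of 27 tested and lower for 0 (median 2.03), with 7 to 18 higher when 1 library was left out: the lowest count was without muscle replicate 1 and the highest without bone marrow replicate 1. With rescaled totals, 9 were higher, and with all 27 libraries 4. Meox2 and Meox1, homeobox genes of the paraxial mesoderm and limb muscle, were close to 0 in bone marrow. Meox2 was at 2661, 2191 and 2319 in muscle and 4.28, 2.87 and 0 in bone marrow (9.77 ± 0.66 (SE), adjusted p = 9.8e-05). Meox1 was at 713, 492 and 670.4 in muscle and 15.6, 0 and 0 in bone marrow (7.92 ± 1.08 (SE), adjusted p = 0.0012). Tbx15 differed by 1.60 ± 0.51 and lost its call when any 1 library other than bone marrow replicate 1 was left out, and under each rescaling. Of 32 Wnt pathway genes 9 were higher and 1 lower, with 15 higher without bone marrow replicate 1. Sfrp2, a secreted Wnt modulator, was at 241, 1713 and 2015 in muscle and 120.2, 48.6 and 12.4 in bone marrow (4.45 ± 1.02 (SE), adjusted p = 0.011), Fzd4, a receptor, differed by 2.77 ± 0.67 (SE), adjusted p = 0.014, and Sfrp4 did not pass (-0.47 ± 0.52 (SE), adjusted p = 0.48). Of 19 IGF and PDGF genes 11 were higher and 2 lower, with 7 higher without muscle replicate 2 or bone marrow replicate 3 or with all 27 libraries. The IGF-binding proteins were divided: Igfbp6 was near 0 in bone marrow, as given above, Igfbp2, chosen after its values were seen, was at 0.587, 0.818 and 4.16 in muscle and 287, 49.6 and 35.7 in bone marrow (-5.04 ± 0.91 (SE), adjusted p = 0.0041), and Igfbp4 did not pass (-0.53 ± 0.75 (SE), adjusted p = 0.59). Glycolysis genes gave 5 higher and 3 lower of 22 (1 and 2 with all 27 libraries), shares near those over all genes, with a median of 0.28 that turned to -0.01 under quantile normalization. Gapdh was at 8828, 8996 and 9200.3 in muscle and 9164, 14916 and 13108 in bone marrow (-0.43 ± 0.26 (SE), adjusted p = 0.21), and Aldoa, an aldolase, was higher in every muscle library but under the fold threshold (1.11 ± 0.22 (SE), adjusted p = 0.0065). Without muscle replicate 2, 3 were higher. The Y-linked gene Ddx3y was at 1482, 1595 and 1366 in muscle and 999.9, 665 and 765 in bone marrow and was no DEG (0.89 ± 0.24 (SE), adjusted p = 0.022).

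Whether the tissue difference of P3 was that of the other subpopulations was tested by subtracting the muscle minus bone marrow difference in P1, or in P2, from that in P3, over 17388 genes in 18 libraries. Both tests use the P3 libraries, so their results are given side by side and are not compared. Against P1, 787 genes had a more positive difference in P3 (4.53%) and 773 a more negative one (4.45%). Rescaling to the same total turned these counts to 395 and 2170, with 15.4% of calls positive in place of 50.5%. Without bone marrow P3 replicate 2 the counts were 496 and 476, and without replicate 3 the negative count was 492. The tissue difference of cell cycle genes was not the same in P3 and P1. The median muscle minus bone marrow difference of G1/S genes ran from -0.12 in P1 to -4.76 in P2, with -3.64 in P3, and 23 of 43 genes had a more negative difference in P3 than in P1, with 0 more positive. With rescaled totals 35 were more negative, and with all 27 libraries in the fit 9. For G2/M genes the medians were -1.49, -5.36 and -4.89 in the same subpopulations, and 27 of 52 were more negative than in P1, or 16 and 17 without bone marrow P3 replicate 2 or 3, and 8 with all 27 libraries. Of the haem synthesis genes, 10 of 15 were more negative in P3 than in P1 (4 with all 27 libraries). Erythroid genes had medians of -4.83, -5.51 and -6.06 in P1, P2 and P3, and 6 of 28 were more negative in P3 than in P1 (1 with all 27 libraries). Ossification went the other way. Its genes had a median difference of -4.55 in P1 and -0.48 in P3, with P2 at -1.31, and 13 of 28 had a more positive difference in P3 than in P1, with 0 more negative (8 and 0 with all 27 libraries). Of 32 fibrous matrix genes 12 were more positive in P3 than in P1, and 19 without bone marrow P3 replicate 1 or 7 with all 27 libraries. Muscle fibre genes were more negative for 13 of 28, and satellite cell genes for 5 of 10, but with all 27 libraries in the fit only 1 and 1 were called.

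Against P2, 4186 genes had a more positive difference in P3 (24.1%) and 2615 a more negative one (15%), and quantile normalization changed these counts to 2221 and 2681, or 45.3% positive in place of 61.5%. Of the muscle fibre genes, 22 of 28 were more negative in P3 than in P2, with medians of 10.16 in P2 and 3.45 in P3. Glycolysis genes were more negative in P3 for 10 of 22 and more positive for 4, a positive share below that of all genes. Fibrous matrix genes were more negative for 15 of 32 and more positive for 4 (7 without bone marrow P2 replicate 2 and 2 with all 27 libraries), while tendon genes were more positive for 8 of 12 (5 under quantile normalization) and mural genes for 8 of 16, or 5 without bone marrow P3 replicate 2 or bone marrow P2 replicate 3 and 4 with all 27 libraries. Fibro-adipogenic genes had medians of 6.39, 6.38 and 6.10 in P1, P2 and P3. Of 25, 6 were more positive and 6 more negative than in P1 (4 and 3 with all 27 libraries). Against P2, 5 were more positive and 8 more negative, beside 24.1% and 15% of all genes (1 and 5 with all 27 libraries, and 3 more positive under quantile normalization).

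**Figure D5:**
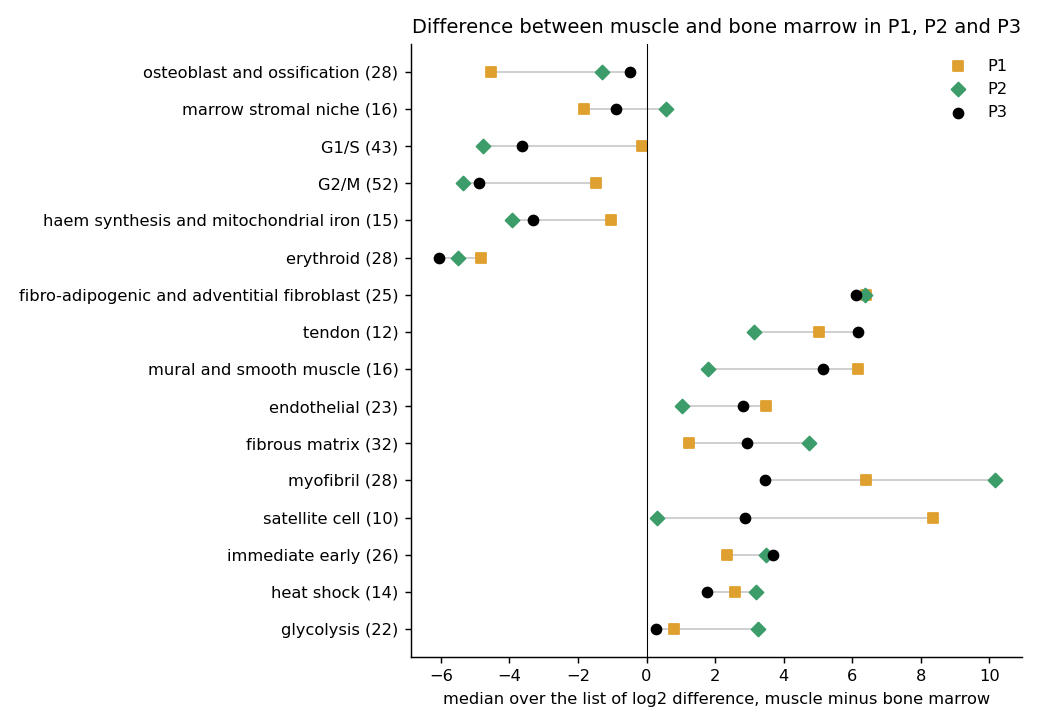
Median over each of 16 gene lists (number of genes in brackets) of the log2 difference, muscle minus bone marrow, in P1 (orange squares), P2 (green diamonds) and P3 (black circles), each from 3 libraries a tissue. G1/S and G2/M genes lie near -0.12 and -1.49 in P1 and far lower in P2 and P3, and myofibril genes reach 10.16 in P2.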

How the data were processed

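RNA of sorted cells was made into libraries with SMART-Seq v4 and Nextera XT kits. According to the study's methods, the authors trimmed reads with Trim Galore, aligned them with STAR and handled counts with DESeq2. The deposited table holds signal values, normalized counts, for 30153 genes and 1 row of transgenes. Genome build, annotation and counting tool are not given in the sources used here. Low values did not fall on 1 step per library, so whole reads were not recovered, read depth is unknown and no counting error is given. In the 6 P3 libraries, 5445 genes were listed at 0. Genes with at least 10 in at least 3 of the libraries fitted were tested with limma 3.58.1 in R 4.3.3 (lmFit, eBayes with trend) on log2(normalized count + 1), with Benjamini-Hochberg adjustment over all genes tested and the study's thresholds. The 6 P3 libraries were fitted alone, and differences between subpopulations were tested as interactions over 18 libraries. An exact permutation test of 3 against 3 libraries cannot go below p = 0.10 and was not used. Lists were counted without any test over a list. A gene could pass the filter through the 3 libraries of 1 tissue alone, so list shares among tested genes are partly set by it. Named genes were the sorting genes and 12 that the paper names, the 10 largest DEGs of each direction without overlap and with a mean of at least 100, the 10 of highest level in each direction, the 4 members of highest level of each list, and the 3 largest interactions of each kind; others are said to be chosen after their values were seen, and some named genes are not reported here. Members, lists and tests were chosen with earlier results of these data known. Alternatives were pseudocounts of 0.1 and 5, no filter, a mean of at least 50, rescaled totals, quantile normalization, median centring, eBayes without trend or robust, a replicate block, all 27 libraries, other thresholds, and each library left out. On simulated data with 200 changed genes among 14058, the P3 fit recovered 39, 83 and 148 at log2 fold changes of 2, 2.5 and 3.5. It also called 1, 1 and 12 unchanged genes. With 200 changed among 17388 at a log2 change of 3, the interaction fits recovered 48 against P1 and 47 against P2. Far fewer genes were changed there than were called in the data, so these recoveries do not give the power of the fits used here. Gene positions came from GENCODE M21 (GRCm38), which held 29732 of the identifiers, and promoters those of RefSeq. Python 3.11.15, numpy 2.4.6, pandas 2.3.3 and matplotlib 3.10.9 were used.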

Additional observations from a re-analysis of the deposited data

Results flagged for a closer look

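Single genes were noted where the muscle minus bone marrow difference in P3 departed from that in another subpopulation by the interaction test of limma, with Benjamini-Hochberg adjustment, and the 3 largest in each direction are given with their values. Against P1, the largest positive departures were in Tmem182, Tdrp and Cacnb3. Tmem182, a membrane protein of muscle and fat, was at 204, 169 and 215 in muscle P3, 0, 1.91 and 0 in bone marrow P3, 174, 5.74 and 135 in muscle P1, and 358, 421 and 417 in bone marrow P1 (9.97 ± 1.41 (SE), adjusted p = 0.00032). Tdrp was at 292, 209.5 and 249.9 in muscle P3, 66.9, 0.874 and 59.4 in bone marrow P3, 12.2, 39 and 24.9 in muscle P1, and 1144, 1278 and 866 in bone marrow P1 (9.16 ± 1.36 (SE), adjusted p = 0.00049). Cacnb3, a calcium channel subunit, was at 51.6, 108 and 106 in muscle P3, 0, 50 and 61.3 in bone marrow P3, 0, 166 and 70.6 in muscle P1, and 2407, 2841 and 1188 in bone marrow P1 (8.99 ± 2.49 (SE), adjusted p = 0.029). In all 3 the bone marrow P1 level stood above that of bone marrow P3. The largest negative departures were in Slc38a1, Fam132b and Aldh1a7. The glutamine transporter gene Slc38a1 was at 24.5, 2.45 and 3.32 in muscle P3, 237, 729 and 737 in bone marrow P3, 145, 84.1 and 68.2 in muscle P1, and 0, 9.27 and 0 in bone marrow P1 (-11.57 ± 1.40 (SE), adjusted p = 9.6e-05). Fam132b, which codes for erythroferrone, was at 10.6, 22.9 and 66.1 in muscle P3, 49.1, 55.5 and 46 in bone marrow P3, 2229, 3091 and 4789.6 in muscle P1, and 0, 10.7 and 1.11 in bone marrow P1 (-11.05 ± 1.41 (SE), adjusted p = 0.00015). Aldh1a7, an aldehyde dehydrogenase gene, was at 1.64, 4.91 and 7.69 in muscle P3, 325, 491 and 399 in bone marrow P3, 11.5, 0 and 24.4 in muscle P1, and 0, 0 and 0 in bone marrow P1 (-9.06 ± 1.76 (SE), adjusted p = 0.0036). Fam132b was high in muscle P1 and overlapped between tissues in P3. Aldh1a7 was listed at 0 in all bone marrow P1 libraries, so its value depends on the pseudocount.

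Against P2, the largest positive departures were in Acsbg1, Npy1r and Eps8l2. Acsbg1, an acyl-CoA synthetase gene, was at 446, 580.1 and 4009.9 in muscle P3, 4.43, 0 and 0 in bone marrow P3, 0.719, 1.55 and 0.944 in muscle P2, and 32.6, 159 and 56.1 in bone marrow P2 (14.22 ± 1.42 (SE), adjusted p = 1.7e-06). Npy1r, a neuropeptide Y receptor gene listed at 0 in all bone marrow P3 libraries, was at 342, 324 and 426 in muscle P3, 0, 0 and 0 in bone marrow P3, 13, 0 and 0 in muscle P2, and 54.1, 64.4 and 414 in bone marrow P2 (14.07 ± 1.55 (SE), adjusted p = 4.6e-06), a value that depends on the pseudocount. Eps8l2 was at 928, 587 and 704 in muscle P3, 1.84, 16.4 and 6.7 in bone marrow P3, 1.23, 0 and 0 in muscle P2, and 164, 190 and 311 in bone marrow P2 (14.01 ± 1.01 (SE), adjusted p = 7.6e-08). These genes were low in muscle P2 and high in muscle P3. The largest negative departures were in the fibre genes Cox6a2 (-11.78 ± 1.13 (SE), adjusted p = 1.2e-06), Tnni2 (-11.32 ± 1.11 (SE), adjusted p = 1.4e-06) and Eno3 (-10.63 ± 0.82 (SE), adjusted p = 1.4e-07), the last a muscle enolase. Tnni2, a troponin of fast fibres, was at 132, 209 and 91.4 in muscle P3, 0, 4.12 and 4.26 in bone marrow P3, 164669, 203575 and 200838 in muscle P2, and 3.2, 0 and 0 in bone marrow P2. Cox6a2 and Eno3 had means of 23449 and 78459 in muscle P2 and 26.9 and 128 in muscle P3. In bone marrow P3, Cox6a2 was at 0, 6.4 and 5.36 and Eno3 at 69.9, 116 and 121. In bone marrow P2, Eno3 was at 8.78, 90.3 and 62.4. Cox6a2 was listed at 0 in all bone marrow P2 libraries, so its value depends on the pseudocount.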

How the results depend on the processing

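Counts are given as all calls, then positive and negative. With all 27 libraries fitted together, which adds the spread of the other groups, the P3 comparison called 1954 genes (1139 and 815), the departure from P1 379 genes (200 and 179) and that from P2 3430 genes (2230 and 1200). At an adjusted p below 0.01, these were 3035 genes (1714 and 1321), 638 genes (316 and 322) and 4202 genes (2319 and 1883). Rescaling to the same total gave 2565 genes (395 and 2170) against P1. Against P2, a mean of at least 50, which tests fewer genes, gave 4368 genes (1866 and 2502), and quantile normalization gave 2221 positive. With each library left out in turn, the P3 comparison called 3622 to 5471 genes (2058 to 3467 and 1475 to 2004), lowest without muscle replicate 2 and highest without bone marrow replicate 1. The departure from P1 ranged over 972 to 2126 (496 to 1134 and 476 to 992), and that from P2 over 5842 to 7388 (3459 to 4624 and 2383 to 2764). The stricter threshold calls fewer genes by its construction, and for all other shifts the cause was not tested. A read depth is not known, so low values such as those of Pax7 have no counting interval. Whether same replicate numbers mark paired libraries is not known. The residual r of same-numbered muscle and bone marrow libraries ran from -0.0791 to 0.0036, which cannot exclude a shared animal. The replicate block called 4342 genes (2656 and 1686), 1470 genes (744 and 726) and 6790 genes (4183 and 2607). Of 180 named genes tested, 141 kept their call under every alternative to the P3 fit run, none that was called changed sign, and the fit of 27 libraries ended 19 calls.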
